A study of Mus musculus with 54 samples.

Results

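The mouse genes whose symbols run from Zfp900 to Zfp999 form a numbered block of zinc finger genes. All protein-coding genes with such a symbol in GENCODE M21 were taken, which gave 65 members out of 55401 genes in the count table. A further numbered symbol that is not annotated as protein-coding was left out. The block was proposed with earlier results of these data known, namely the levels of Zfp934 and Zfp951 in undifferentiated cells of the A677T, R679C, K634E and K563E lines against the EZH2-WT line. All variant lines, A733T included, are therefore set against EZH2-WT in undifferentiated cells as a description that supports nothing.

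The data are polyA RNA-seq counts from mouse embryonic stem cells (mESC). The genotype of the parental line is labelled parental, and its library names read flfl. The series describes the other lines as carrying 1 floxed and 1 deleted Ezh2 allele, and the line labelled parental_EZH2-heterozygote, called the heterozygote here, has no added EZH2. The EZH2-WT line and the A677T, R679C, K634E, K563E and A733T lines are such cells that express EZH2 without a change or with the named substitution. The series names Weaver syndrome-associated variants, from a human overgrowth syndrome, and a growth restriction-associated one without saying which is which. From general knowledge of this study, A733T is taken as the growth restriction-associated variant. Each line was profiled undifferentiated and after removal of 2i/LIF with all-trans retinoic acid (ATRA), in 3 libraries each, so 48 libraries in 16 groups were used of 54 in the series. The Y728 line is not analysed here. The labels do not say whether a line is 1 clone, what drives the added EZH2, or whether replicates are separate cultures, so p-values measure only the spread between these libraries.

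Most genes of this block encode KRAB zinc finger proteins, which bind DNA through arrays of zinc fingers. Many of them recognise transposable elements and recruit TRIM28 (KAP1), which brings the histone H3 lysine 9 methyltransferase SETDB1 and silences the bound element. In mouse such genes lie in fast-evolving clusters of near-identical copies, and embryonic stem cells are a known site of this silencing. EZH2 is the catalytic subunit of Polycomb repressive complex 2, which methylates histone H3 lysine 27.

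The members lay on 12 chromosomes, and 46 of them fell in 6 clusters of at least 3 members with gaps of at most 1 Mb (coordinates in mm10). The largest cluster held 16 members on chromosome 4 between 145510759 and 147848366. Clusters of 10 lay on chromosome 2 between 175372436 and 178078476 and on chromosome 17 between 21567008 and 22867134. Smaller clusters held 4 members on chromosome 7 (42579783 to 43192109), 3 on chromosome 8 (69209038 to 69749970) and 3 more on chromosome 17 (32993129 to 33307241). The transcripts of the members were poor in G and C. The GC content of the longest transcript ran from 33.21% to 53.95% with a median of 38.59%, against a median of 49.9% over all genes tested in mESC. Of all those genes, 3.54% lay below the median of the members. Other numbered Zfp genes below Zfp900 had a median of 45.65%. The chromosome 4 members were lower still, with a median of 36.26%.

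Near-identical copies limit how exactly reads can be assigned within this block. Across the members, the median share of 50-base exon words that also occur in another gene was 20.97%. That share was above 50% in 20 members, 9 of them in the chromosome 4 cluster, and below 10% in 23. It was 100% in Zfp935, Zfp965, Zfp967, Zfp968 and Zfp969. In the chromosome 4 cluster it reached 92.14% in Zfp987, 86.76% in Zfp993 and 86.7% in Zfp991, and was 42.98% in Zfp992, 39.9% in Zfp981 and 16.17% in Zfp985. In Zfp934 it was 40.05% and in Zfp951 1.2%. Values of members with a large share are uncertain, because the counting could split their reads between copies.

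The sequences just upstream of the start sites show the family resemblance of the chromosome 4 members, whose levels nevertheless differed in the comparisons below. RefSeq promoter windows on GRCm38 were found for 55 of the 65 members. Of the 10 chromosome 4 members with a window, 8 (Zfp979, Zfp980, Zfp981, Zfp982, Zfp984, Zfp985, Zfp987 and Zfp988) were 69.0% to 91.0% identical to each other. All 8 held the 15-base word TGGGAAGCTAATTAA, which a script picked as shared by them. Searched on both strands, this word was in 12 of 32851 windows (0.0365%). The other 4 belonged to Gm13212, Rex2, Zfp534 and Zfp600, which lie within the same interval. The word is a description of shared letters, not a binding site. The 250 bases upstream are printed 5′ to 3′ for a pair of members that fell in the heterozygote, Zfp985 (chr4:147553027-147553276, plus strand) and Zfp981 (chr4:146514670-146514919, plus strand), and for a pair that did not pass the test there, Zfp979 (chr4:147642509-147642758, minus strand) and Zfp987 (chr4:146097062-146097311, plus strand). Capitals mark the shared word. Zfp951 on chromosome 5 (chr5:104860028-104860277, minus strand), the member that fell most, is shown for contrast and does not hold the word.
Zfp985: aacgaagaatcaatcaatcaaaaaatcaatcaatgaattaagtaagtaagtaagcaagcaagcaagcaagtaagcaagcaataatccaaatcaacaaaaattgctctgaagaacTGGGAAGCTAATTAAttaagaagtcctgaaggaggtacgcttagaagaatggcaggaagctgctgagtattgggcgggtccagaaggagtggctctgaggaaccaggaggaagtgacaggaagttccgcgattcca
Zfp981: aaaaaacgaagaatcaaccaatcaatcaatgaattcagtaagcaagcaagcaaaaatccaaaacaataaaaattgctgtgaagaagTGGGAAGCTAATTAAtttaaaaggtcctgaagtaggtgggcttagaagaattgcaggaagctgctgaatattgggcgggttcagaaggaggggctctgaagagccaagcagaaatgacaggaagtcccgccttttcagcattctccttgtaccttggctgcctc
Zfp979: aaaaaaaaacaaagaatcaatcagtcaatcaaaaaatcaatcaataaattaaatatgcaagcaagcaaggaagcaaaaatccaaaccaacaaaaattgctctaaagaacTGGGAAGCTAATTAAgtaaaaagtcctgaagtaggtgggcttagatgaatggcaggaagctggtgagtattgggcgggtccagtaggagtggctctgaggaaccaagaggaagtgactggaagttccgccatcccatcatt
Zfp987: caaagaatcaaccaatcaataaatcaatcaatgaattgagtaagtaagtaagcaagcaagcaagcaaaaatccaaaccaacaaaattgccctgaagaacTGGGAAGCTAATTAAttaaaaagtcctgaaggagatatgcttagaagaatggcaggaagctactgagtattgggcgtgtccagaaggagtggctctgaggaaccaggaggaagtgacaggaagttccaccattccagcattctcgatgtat
Zfp951: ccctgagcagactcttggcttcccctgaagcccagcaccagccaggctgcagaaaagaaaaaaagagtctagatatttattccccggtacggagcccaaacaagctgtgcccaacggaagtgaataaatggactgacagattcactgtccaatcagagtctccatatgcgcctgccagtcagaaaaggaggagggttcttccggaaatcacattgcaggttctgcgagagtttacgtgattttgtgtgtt

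Library totals ran from 15361598 to 29614420 counts in mESC and from 15612700 to 31338825 after ATRA. Stem cell markers were detected in all groups, and the summed level of the 6 retinoic acid markers was 2.67 to 8.60 CPM (counts scaled to a common library size) in mESC and 616.4 to 994.1 CPM after ATRA. Ezh2 itself, counted over the whole gene and so no check of the deletion, was at 297.9 to 303.4 CPM in parental mESC, 276.3 to 284.0 CPM in the heterozygote and 416.8 to 462.8 CPM in the EZH2-WT line. It ranged over 477.4 to 627.5 CPM in the 4 lines A677T, R679C, K634E and K563E, and over 345.6 to 378.4 CPM in A733T. The dependence on gene GC content varied between libraries. The Spearman correlation across genes of a library's log2 deviation from its state mean with GC content ran from -0.721 to 0.717 in mESC and from -0.747 to 0.562 after ATRA. The most negative of each state, A677T replicate 3 in mESC and K634E replicate 3 after ATRA, also had the highest mitochondrial shares of counts, 2.703% and 2.77%. Counts of members that use these 2 libraries are also given without them for the variant lines.

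Most members were expressed. At a mean of at least 1 CPM, 54 of the 65 were detected in mESC and 56 after ATRA, and at 10 CPM the counts were 34 and 28. The median member was at 10.9 CPM in mESC and 7.77 CPM after ATRA. Zfp979 was highest per library in both states, at means of 139.5 and 181.0 CPM. Per kilobase of exon it stayed highest, at 33.9 and 44.0 CPM per kb, and Zfp961 was at 16.5 and 17.0 CPM per kb. In mESC, 58 members passed the filter on low counts and were tested. The other 7 (Zfp935, Zfp957, Zfp965, Zfp967, Zfp968, Zfp969 and Zfp973) had at most 16 counts in any mESC library. Zfp935 was at 0 in all libraries. Of these 7, 5 share all their 50-base words with other genes and Zfp973 shares 88.4%, and how reads of several origins were counted is not given in the sources used here, so low counts do not show low expression there.

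**Figure D1:**
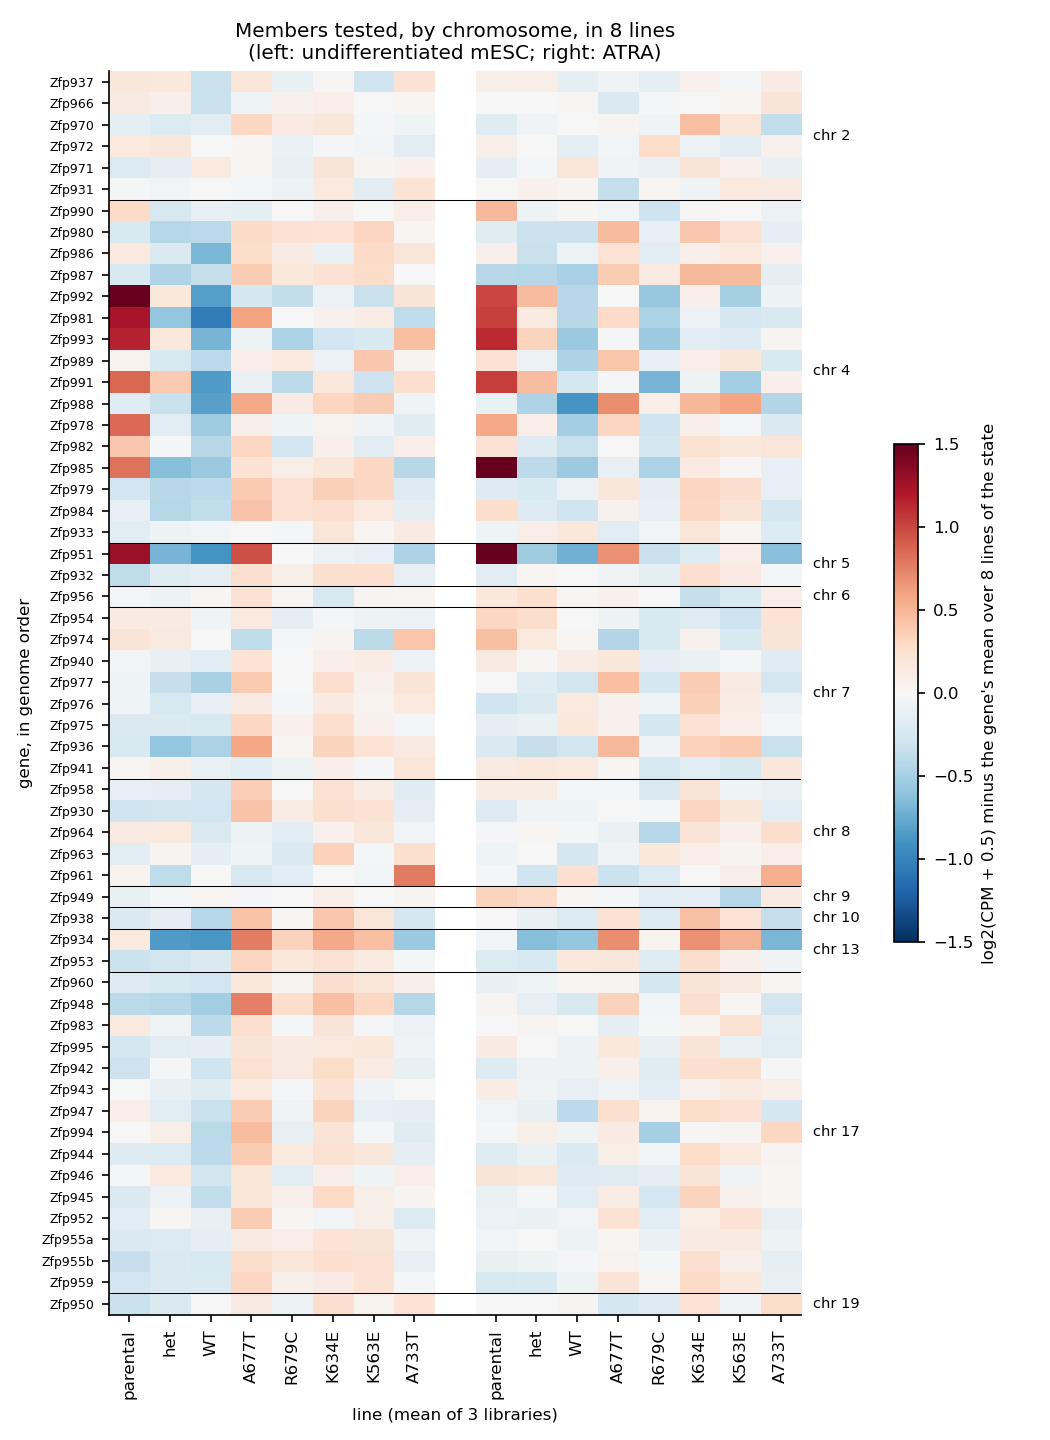
Heat map with 1 row for each of the 58 members tested, in genome order by chromosome, and 1 column for each of 8 lines (mean of 3 libraries), undifferentiated mESC on the left and ATRA on the right. Colour is log2(CPM + 0.5) minus the mean of the gene over the lines of that state. Zfp992, Zfp981, Zfp993 and Zfp951 are among the rows that are red in the parental columns and pale or blue in the heterozygote and EZH2-WT columns.

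The comparison of the heterozygote with the parental line asks what differed when 1 Ezh2 allele was deleted. In mESC, 9 of 58 members fell and 0 rose in edgeR's quasi-likelihood test (Benjamini-Hochberg adjusted p under 0.05 over all genes), where 2.26% of all genes tested fell and 1.17% rose. After ATRA, also 9 of 58 fell and 0 rose, against 4.05% and 2.20% of all genes. The median log2 fold change of the members was -0.05 in mESC and -0.04 after ATRA, against 0.00 for all genes in both states, so the falls were in a minority of members. The libraries of the 2 states are separate but come from the same parental and heterozygote lines, so a lasting difference between these lines would show in both. In both states 7 members fell, 77.8% of each list. Of all genes tested in both states 179 fell in both, 51.6% of those that fell in mESC and 31.6% of those that fell after ATRA. In bulk RNA, fewer cells of a type and less RNA per cell cannot be told apart.

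Zfp951 fell most. In mESC it was at 2.96, 4.13 and 3.40 CPM in the parental libraries and at 0.583, 0.541 and 0.390 CPM in the heterozygote. After ATRA it was at 3.70, 3.60 and 4.79 CPM in the parental line and 0.342, 0.552 and 0.647 CPM in the heterozygote. The groups did not overlap in either state. The log2 fold change was -2.79 ± 0.32 (SE, adjusted p = 2.31e-06) in mESC and -3.01 ± 0.30 (adjusted p = 4.85e-08) after ATRA. These are small counts, 9 to 11 reads for each heterozygote library in mESC.

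Zfp981 and Zfp985, from the chromosome 4 cluster, followed in size. Zfp981 was at 20.6, 26.0 and 25.7 CPM in parental mESC and 7.21, 6.14 and 6.16 CPM in the heterozygote, a log2 fold change of -1.90 ± 0.16 (adjusted p = 1.36e-08). Zfp985 was at 19.6, 21.9 and 21.3 CPM against 8.01, 7.23 and 6.85 CPM, a log2 fold change of -1.51 ± 0.20 (adjusted p = 3.56e-05). Every heterozygote library lay below every parental one for both genes. After ATRA, Zfp985 fell from 26.4, 27.6 and 27.3 CPM to 7.24, 7.26 and 6.37 CPM (log2 fold change -1.96 ± 0.17, adjusted p = 1.96e-08). Zfp981 went from 33.3, 35.4 and 31.4 CPM to 17.9, 18.7 and 16.8 CPM (-0.91 ± 0.14, adjusted p = 5.31e-05), and this difference was smaller than in mESC (adjusted p = 0.0116 for the difference between states).

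The other members that fell in mESC were Zfp992 (log2 fold change -1.40), Zfp993 (-1.33), Zfp934 (-1.32), Zfp978 (-1.05), Zfp990 (-0.54) and Zfp961 (-0.44). Zfp934 was at 1.86, 2.62 and 2.57 CPM in parental mESC and 0.848, 1.18 and 0.781 CPM in the heterozygote. Its call, with an adjusted p of 0.0105 in edgeR's test, was lost without parental replicate 2 (0.0529) or 3 (0.0563), or heterozygote replicate 1 (0.0514) or 3 (0.0824). That of Zfp993 (0.0138) was lost without parental replicate 1 (0.0545) or 3 (0.0658), or heterozygote replicate 1 (0.0668), and that of Zfp961 (0.0083) without parental replicate 2 (0.0577) or heterozygote replicate 2 (0.0502). After ATRA the remaining falls were in Zfp993 (-0.97), Zfp991 (-0.61), Zfp990 (-0.57), Zfp992 (-0.54), Zfp978 (-0.48) and Zfp984 (-0.47). Zfp934 missed the threshold there, at -0.71 (adjusted p = 0.051).

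Of the 9 calls after ATRA, 5 were lost when single libraries were left out. Zfp990 was lost without parental replicate 2 (adjusted p = 0.0977) or 3 (0.0616), or heterozygote replicate 1 (0.106) or 3 (0.08), all in edgeR's test. Zfp991 was lost without parental replicate 2 (0.0918) or 3 (0.153), or heterozygote replicate 1 (0.182) or 3 (0.0899). Zfp993 was lost without parental replicate 2 (0.213) or 3 (0.13), or any of heterozygote replicates 1 (0.111), 2 (0.245) and 3 (0.0523). Zfp978 was lost without parental replicate 3 (0.0692) or heterozygote replicate 1 (0.0712) or 2 (0.0537). Zfp984 was lost without any of 5 libraries, all but parental replicate 1 (0.0592 to 0.127). The count of members that fell was 4 without heterozygote replicate 1 or parental replicate 3 and 5 without heterozygote replicate 3 or parental replicate 2.

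**Figure D2:**
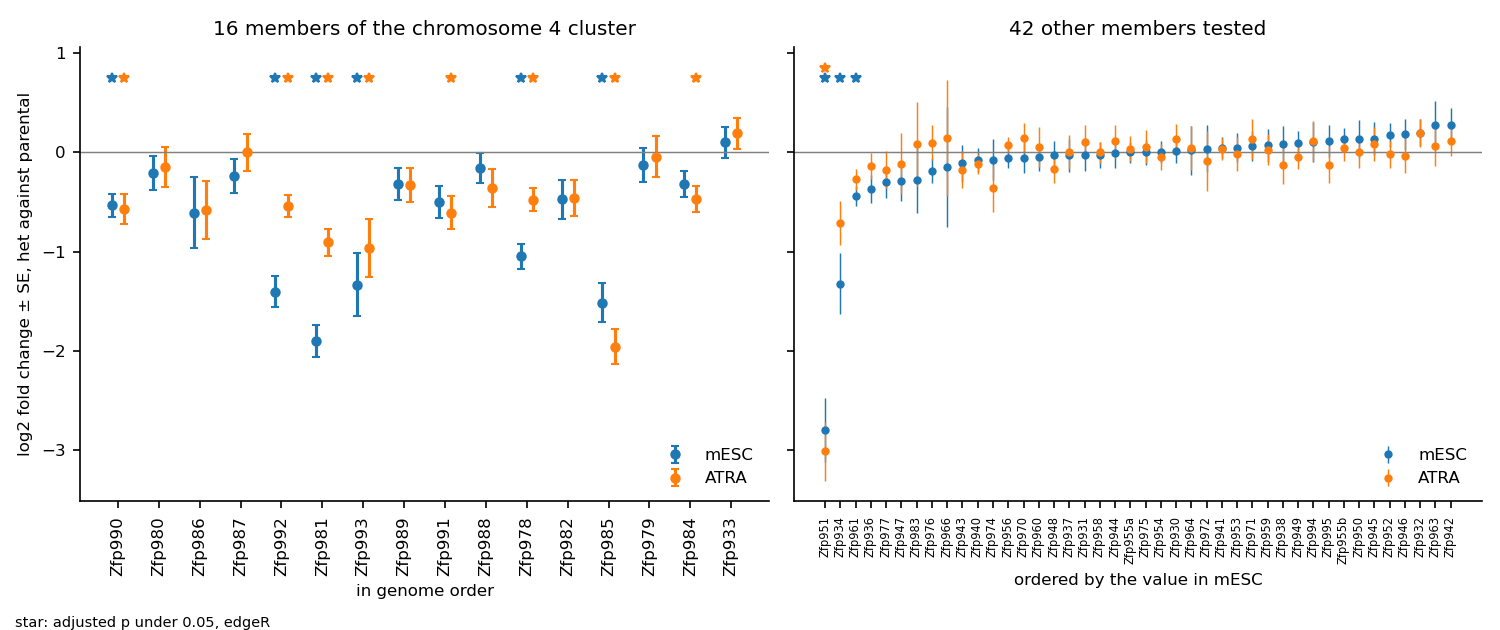
Log2 fold change with error bars of 1 SE, heterozygote against parental, in mESC (blue) and after ATRA (orange), for the 16 chromosome 4 members in genome order (left) and 42 other members ordered by their mESC value (right). Stars near the top mark an adjusted p under 0.05. Of the starred values, 6 in mESC and 8 after ATRA are in the left panel, and Zfp951 in the right panel is lowest in both states at -2.79 and -3.01.

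By position, 6 of the 16 chromosome 4 members fell in mESC and 8 after ATRA, and 15 of 16 had a fold change below 0 in each state. Their median log2 fold change was -0.49 in mESC and -0.47 after ATRA. Outside this cluster 3 of 42 members fell in mESC and 1 of 42 after ATRA. Not every chromosome 4 member passed the test, and a missed threshold does not show that a member was unchanged. Zfp979, the most abundant, was at 96.2, 124 and 113 CPM in parental mESC and 108, 95.7 and 102 CPM in the heterozygote, and these overlapped. Zfp987 likewise gave a log2 fold change of -0.24 and Zfp980 of -0.21, neither of which passed. The summed level of the 16 genes was 435.7 ± 52.4 CPM (SD, n = 3) in the parental line and 318.0 ± 16.5 CPM in the heterozygote.

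Other genes in the same interval of chromosome 4 were lower too. Of the 25 tested in mESC, 6 fell and 0 rose, with a median log2 fold change of -0.36. Among them were Rex2 (-1.93), Zfp600 (-1.38) and Gm13241 (-1.27). After ATRA 3 of 29 of these other genes fell. With each library's smooth trend over GC content taken out, more of these other genes fell in both states. Among them were Zfp534 in mESC (-0.39, adjusted p = 0.000205 in edgeR's test) and Rex2 after ATRA (-0.71, adjusted p = 0.00211). Some of them share sequence with members. Rex2 held 58.55% of the 50-base words of Zfp980 and 29.42% of those of Zfp981, and Zfp600 held 54.45% of those of Zfp978. Reads could be split between such copies, so counts of these other genes, here and below, may not be separate from those of the members. Of the other numbered Zfp genes, 5 of 304 fell and 2 rose in mESC.

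Markers of other cell types moved in the same comparison. The summed level of 5 genes of the 2-cell-like state was 1.28 to 1.64 CPM in parental mESC and 0.0 to 0.053 CPM in the heterozygote, with Zscan4c, Zfp352 and Tcstv3 at 0. After ATRA it was 19.2 to 20.2 CPM against 0.84 to 1.10 CPM. In mESC, the 4 endoderm markers went from 4.16 to 5.13 CPM to 1.95 to 1.97 CPM with Foxa2 at 0, the 4 trophoblast markers from 22.4 to 28.8 CPM to 16.1 to 18.9 CPM, and the 6 fibroblast markers from 3.01 to 4.27 CPM to 1.43 to 2.08 CPM with 4 at 0 in both lines. After ATRA, the trophoblast sum was 29.2 to 34.8 CPM against 21.3 to 21.5 CPM and the fibroblast sum 4.30 to 4.64 CPM against 2.84 to 2.95 CPM. The endoderm sum overlapped there, at 78.55 to 96.69 CPM against 74.83 to 86.47 CPM. The part of these markers in the result was not tested.

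**Figure D3:**
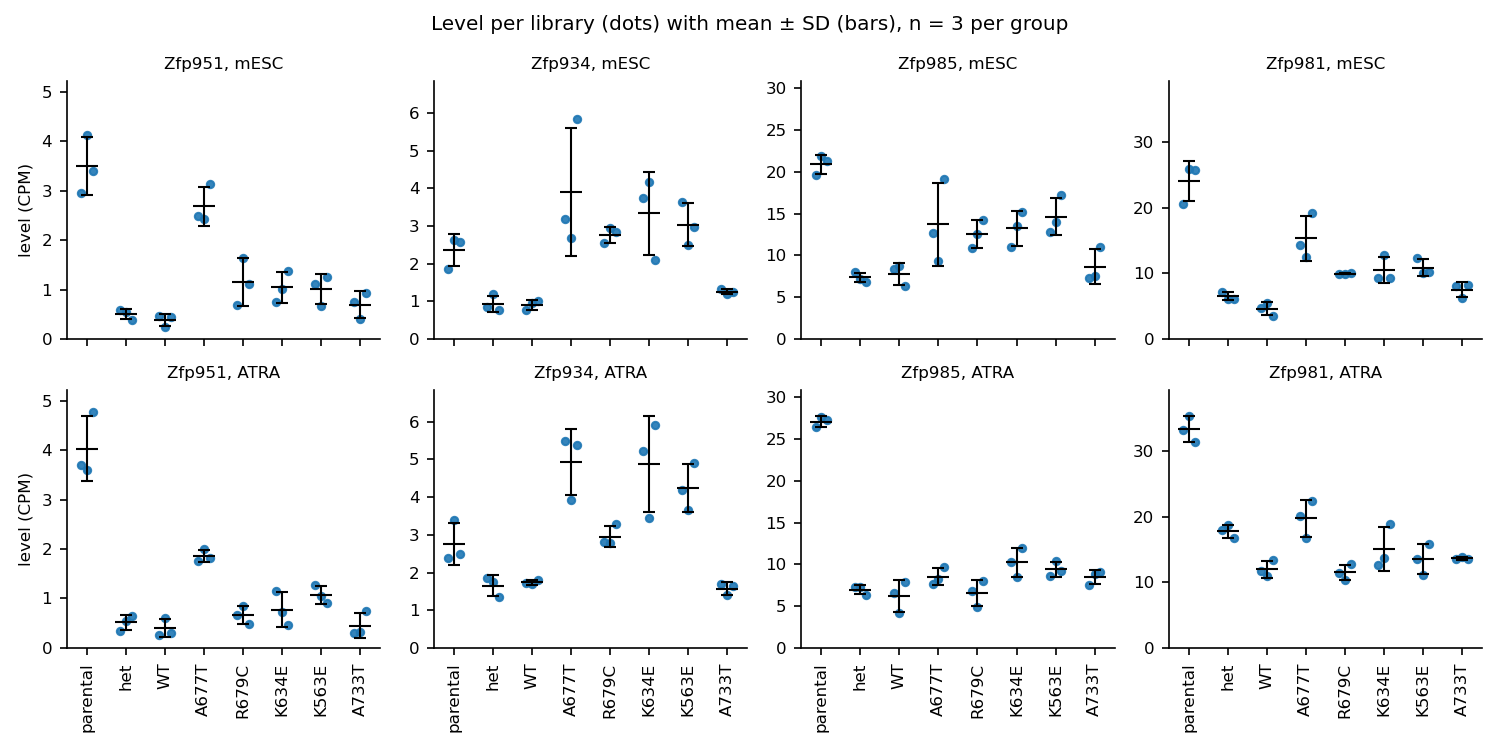
CPM of Zfp951, Zfp934, Zfp985 and Zfp981 by line in mESC (top) and after ATRA (bottom), with 1 dot for each library and bars for the mean ± SD (n = 3). The parental dots lie above the heterozygote and EZH2-WT dots in every panel, and for Zfp951 in mESC the A677T dots are highest among the variant lines, between 2.43 and 3.15 CPM.

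The comparison of the EZH2-WT line with the heterozygote asks what expressing unchanged EZH2 did; it shares the heterozygote libraries with the comparison above. Its mESC values also use the EZH2-WT libraries behind the choice of the block and so are not independent of it. In mESC, 1 of 58 members rose and 5 fell, where 5.22% and 6.84% of all genes did. After ATRA, likewise 1 rose and 5 fell, against 7.64% and 8.74%. These shares are near those of all genes. With each library's smooth trend over GC content taken out, 3 rose and 10 fell in mESC, where 9.21% and 10.4% of all genes did, and 3 rose and 7 fell after ATRA, against 11.8% and 12.8%. After ATRA the endoderm sum was 74.8 to 86.5 CPM in the heterozygote and 126.0 to 131.9 CPM with EZH2-WT, and the 2-cell-like sum 0.84 to 1.10 CPM and 3.08 to 4.49 CPM. The part of these markers was not tested. Zfp961, a member with no shared exon words, rose in both states. It was at 55.1, 51.5 and 52.8 CPM in heterozygote mESC and 68.1, 70.1 and 70.1 CPM with EZH2-WT (log2 fold change 0.38 ± 0.10, adjusted p = 0.0114), and rose by 0.56 ± 0.11 after ATRA (adjusted p = 0.000519). Its mESC call was lost without heterozygote replicate 2 (adjusted p = 0.0586) or 3 (0.0551).

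None of the chromosome 4 members that fell in the heterozygote rose in the EZH2-WT line. Zfp992 fell further, from 11.4, 13.0 and 11.5 CPM to 6.34, 5.49 and 5.54 CPM in mESC (log2 fold change -1.05 ± 0.18, adjusted p = 0.000185) and by 0.90 on the log2 scale after ATRA. Zfp991 fell from 6.26, 5.75 and 7.50 CPM to 2.48, 2.67 and 2.22 CPM in mESC (log2 fold change -1.40, adjusted p = 8.44e-06), and by 0.80 on the log2 scale after ATRA. These groups did not overlap. Zfp993 also fell in both states (-1.60 and -1.35), Zfp937 and Zfp988 in mESC (-0.55 and -0.49), and Zfp978 and Zfp981 after ATRA (-0.61 and -0.56). Zfp951 and Zfp934 did not pass in either state. Zfp951 was at 0.456, 0.239 and 0.443 CPM in EZH2-WT mESC (log2 fold change -0.41, adjusted p = 0.616 in edgeR's test), and its libraries overlapped those of the heterozygote.

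Several of these calls depended on 1 library. In mESC the adjusted p of Zfp993 was 0.0503 without heterozygote replicate 3 and 0.0507 without EZH2-WT replicate 1, and after ATRA it was 0.0511 without heterozygote replicate 3. Zfp937 was lost without heterozygote replicate 3 (0.212) or EZH2-WT replicate 1 (0.0765), 2 (0.0511) or 3 (0.16). Zfp988 was lost without any 1 of the 6 libraries (0.0607 to 0.194). The mESC count of 6 calls was 2 without heterozygote replicate 3 and 3 without EZH2-WT replicate 1.

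For the lines A677T, R679C, K634E and K563E against EZH2-WT in mESC, the values that prompted this block, 21 of 58 members were at least 1.5-fold higher and 0 at least 1.5-fold lower on the mean of the 4 lines. Over all genes the shares were 5.20% and 12.0%. The median over the members was a log2 difference of 0.48 with 51 above 0, and over all genes it was 0.00. By line, 27 members were at least 1.5-fold higher in A677T (15 without replicate 3), 13 in R679C, 28 in K634E and 19 in K563E. The shares of all genes above hold for the mean of the 4 lines and not for single lines, so nothing is read from the counts by line. Zfp934 and Zfp951 stood highest at 3.60-fold and 3.59-fold, followed by Zfp986, Zfp981, Zfp988 and Zfp948 at 2.74-fold, 2.52-fold, 2.28-fold and 2.01-fold. The smallest values that reached this mark were those of Zfp994 (1.52-fold) and Zfp992 (1.54-fold). These are descriptions of the values on which the choice rested.

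Zfp934 was at 0.760, 0.954 and 0.997 CPM in EZH2-WT mESC, and at 3.17, 2.67 and 5.84 CPM in A677T. It was at 2.53, 2.94 and 2.83 CPM in R679C, 3.75, 4.16 and 2.08 CPM in K634E and 3.62, 2.49 and 2.98 CPM in K563E. Every library of these lines lay above every EZH2-WT library. Zfp951 differed more between the lines, with 2.49, 2.43 and 3.15 CPM in A677T, 0.680, 1.65 and 1.11 CPM in R679C, 0.739, 1.02 and 1.37 CPM in K634E and 1.11, 0.663 and 1.25 CPM in K563E. The A677T libraries lay above all libraries of the other variant lines.

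The dependence of counts on GC content moved with this comparison. Across 15816 genes the Spearman correlation between the log2 difference and GC content was -0.555, and across the 58 members it was -0.451. These are correlations across genes, which are not independent replicates. The 1029 genes with a GC content in the middle range of the members (36.93% to 40.58%) had a median log2 difference of 0.32. The Spearman correlation between a library's log2 deviation from its state mean and GC content ran from 0.492 to 0.717 in the EZH2-WT mESC libraries. It ran from -0.721 to 0.011 in A677T, -0.368 to 0.106 in R679C, -0.706 to -0.265 in K634E and -0.565 to -0.009 in K563E. The mitochondrial share of counts was 1.48% to 1.81% with EZH2-WT, 1.99% to 2.09% in R679C, 2.34% to 2.60% in K634E, 1.93% to 2.15% in K563E and 1.67% to 2.703% in A677T. The summed level of the 9 stem cell markers was 6586 to 6765 CPM with EZH2-WT and 5207 to 6013 CPM over the 4 lines, and that of the trophoblast markers 15.02 to 15.82 CPM and 6.93 to 12.7 CPM. Their part in the values was not tested.

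With each library's smooth trend over GC content taken out, 6 members were at least 1.5-fold higher and 0 lower, where 3.97% and 9.95% of all genes were, and the median of the members was 0.12. The median of the genes in the same GC range became 0.00. Zfp951 kept a log2 difference of 1.58, Zfp934 of 1.44 and Zfp986 of 1.11, while Zfp979 went from 0.73 to 0.26. The library with the strongest trend, A677T replicate 3, also had the highest median deviation over the members, 0.54 on the log2 scale, and the lowest, -0.42, was EZH2-WT replicate 3. Without A677T replicate 3, 16 members were at least 1.5-fold higher and 1 lower.

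**Figure D4:**
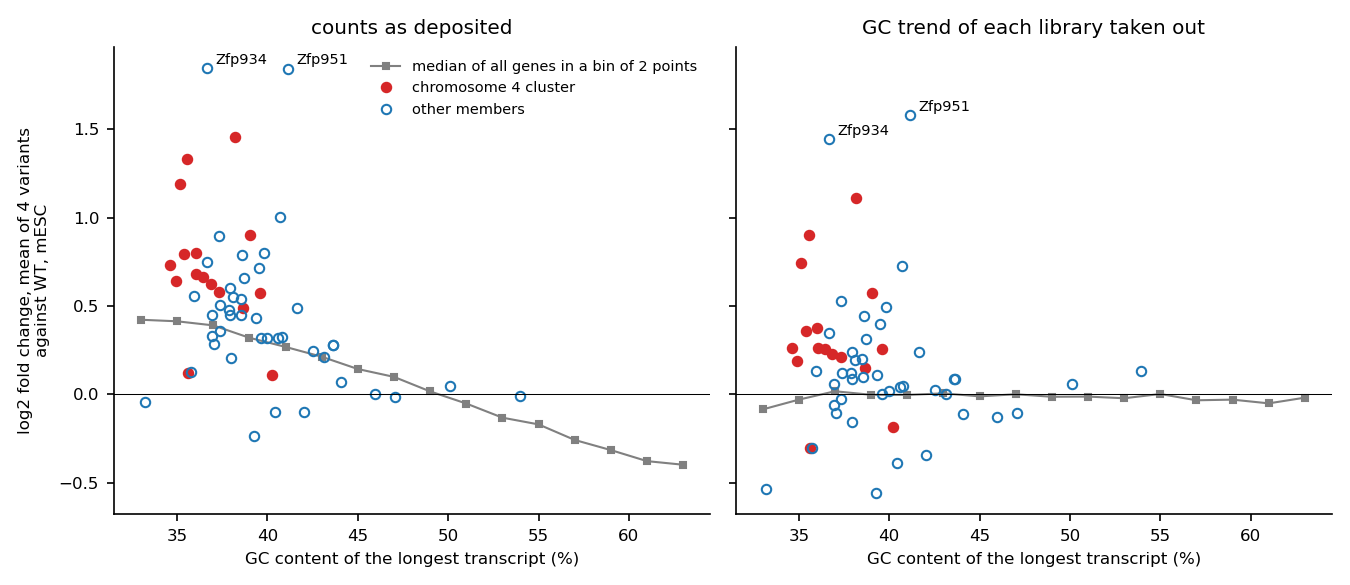
Log2 fold change of the average over 4 variant lines against EZH2-WT in mESC, by GC content of the longest transcript in percent, from the counts as deposited (left) and after removal of the GC trend per library (right). Dots are members, red for the chromosome 4 cluster, and the grey line is the median of all genes in bins of 2 points. The grey line slopes down on the left and lies near 0 on the right, where Zfp951 stays at 1.58 and Zfp934 at 1.44.

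A733T against EZH2-WT in mESC uses the EZH2-WT libraries behind the choice of the block, so its values too are a description. Of 58 members 15 were higher and 0 lower at an adjusted p under 0.05 in edgeR's test, where 10.7% of all genes were higher and 8.64% lower, and nothing is read from this count. The median of the members was 0.26 on the log2 scale, and of all genes 0.03. The chromosome 4 cluster held 9 of the 15, out of 16, and the chromosome 7 cluster 2 of 4.

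Zfp992 was at 6.34, 5.49 and 5.54 CPM with EZH2-WT and 12.3, 12.1 and 12.4 CPM with A733T, a log2 difference of 1.10 ± 0.18 (SE). Zfp961 was at 68.1, 70.1 and 70.1 CPM and 125, 109 and 125 CPM (0.81 ± 0.10). Zfp991 was at 2.48, 2.67 and 2.22 CPM and 5.79, 6.21 and 5.58 CPM (1.27 ± 0.19). None of these groups overlapped. Zfp993 (2.04), Zfp986 (1.52) and Zfp988 (0.78) were higher as well, Zfp986 from 3 to 12 counts in the EZH2-WT libraries. In A677T, R679C, K634E and K563E the mESC level of Zfp961 was 50.3 to 76.4 CPM, below all 3 A733T libraries. Zfp934 was at 1.32, 1.18 and 1.24 CPM and Zfp951 at 0.745, 0.394 and 0.931 CPM with A733T.

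With the GC trend taken out, 11 members were higher and 0 lower at that threshold, where 13.1% of all genes were higher and 11.7% lower, and the median was 0.09. Zfp961 then had a log2 difference of 0.70, Zfp992 of 0.91 and Zfp991 of 1.05. The number past the threshold was 7 without EZH2-WT replicate 3 and 9 without A733T replicate 1. Markers of other cell types were higher with A733T too. The trophoblast sum was 15.02 to 15.82 CPM with EZH2-WT and 24.7 to 30.5 CPM with A733T, the endoderm sum 1.57 to 2.94 CPM and 4.96 to 5.87 CPM, and the fibroblast sum 1.384 to 1.825 CPM and 3.67 to 4.98 CPM. The 2-cell-like genes were all at 0 with EZH2-WT and summed to 0.36 to 0.59 CPM with A733T. Their part in the values was not tested.

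After ATRA the average over these 4 variant lines (A677T, R679C, K634E and K563E) could be tested against EZH2-WT on libraries that the choice of members did not use. These libraries come from the same lines as those behind the choice, so a lasting difference between lines would show in both states. The values of Zfp934 and Zfp951 here are therefore not independent of that choice. Of 58 members 14 rose and 2 fell, where 8.43% of all genes rose and 12.1% fell. The median of the members was 0.15 and that of all genes 0.00. Within the chromosome 4 cluster 7 of 16 rose, and of the other genes in its interval 11 of 29 rose. With the GC trend taken out, 13 members rose and 6 fell, where 11.5% and 14.5% of all genes did, with a median of 0.04. Without K634E replicate 3, 13 rose and 2 fell. Over the 15 libraries left out in turn, the number called ran from 11 to 18. The calls of Zfp980 and Zfp985 on chromosome 4, and of Zfp977, Zfp948 and Zfp944, were lost without a single EZH2-WT library, as were those of Zfp947 and Zfp941 given below. The endoderm sum was 126.0 to 131.9 CPM with EZH2-WT and 50.6 to 74.4 CPM over the 4 lines, and its part in the result was not tested.

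Zfp988, Zfp951 and Zfp934 rose most. Zfp988 was at 21.2, 19.4 and 22.4 CPM with EZH2-WT and at 33.2 to 77.7 CPM over the 12 variant libraries, with no overlap (log2 fold change 1.39 ± 0.17, adjusted p = 4.94e-06). Zfp934 was at 1.73, 1.69 and 1.79 CPM against 2.78 to 5.92 CPM, again without overlap (1.27 ± 0.18, adjusted p = 6.54e-06). Zfp951 was at 0.270, 0.602 and 0.306 CPM against 0.456 to 2.01 CPM, and these overlapped (1.32 ± 0.31, adjusted p = 0.00253). By line its log2 difference was 2.19 in A677T, 1.40 in K563E, 0.95 in K634E and 0.75 in R679C. That of Zfp934 ran from 0.76 in R679C to 1.52 in K634E.

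Zfp987 (0.87), Zfp947 (0.77) and Zfp989 (0.66) rose, and the 2 that fell were Zfp961 (-0.35) and Zfp941 (-0.31). The call of Zfp947, at 1.05 to 1.69 CPM with EZH2-WT, was lost without EZH2-WT replicate 1 (adjusted p = 0.138) or 3 (0.149), or A677T replicate 1 (0.0523). That of Zfp941 was lost without EZH2-WT replicate 3 (0.116), in edgeR's test.

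A733T against EZH2-WT after ATRA gave 2 members that rose and 1 that fell, where 10.4% and 7.33% of all genes did. Zfp982 (0.58) and Zfp992 (0.34) rose and Zfp940 (-0.30) fell. Each call was lost without at least 4 of the 6 libraries. Zfp992 was lost without EZH2-WT replicate 2 (adjusted p = 0.151) or 3 (0.101) or A733T replicate 1 (0.0532), 2 (0.0599) or 3 (0.242). Zfp982 was lost without EZH2-WT replicate 1 (0.0884) or 2 (0.121) or A733T replicate 2 (0.059) or 3 (0.235). Zfp940 was lost without EZH2-WT replicate 1 (0.119), 2 (0.0615) or 3 (0.076) or A733T replicate 1 (0.178) or 2 (0.125). With the GC trend taken out, 8 rose and 3 fell in edgeR's test, where 14.2% and 11.9% of all genes did. The trophoblast sum was 25.1 to 28.2 CPM with EZH2-WT and 54.5 to 63.5 CPM with A733T, and the endoderm sum 126.0 to 131.9 CPM and 109.4 to 111.6 CPM. The part of these markers was not tested. The count of 3 calls was 0 without A733T replicate 2 and 1 without A733T replicate 1 or EZH2-WT replicate 1 or 2.

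Set against A733T after ATRA, the mean of the 4 other variant lines was higher in 15 of 58 members and lower in 9, where 21.5% and 27.0% of all genes were. This comparison shares libraries with both of the preceding ones. Zfp934 (1.42), Zfp951 (1.17), Zfp988 (0.93), Zfp936 (0.66), Zfp970 (0.58) and Zfp938 (0.57) were the largest log2 fold changes upward. Zfp961 (-0.65) was the largest downward: it was at 106, 106 and 105 CPM with A733T and at 52.9 to 85.0 CPM in the other variant libraries, with no overlap (adjusted p = 2.66e-07 in edgeR's test). Zfp974 (-0.53), Zfp994 (-0.46), Zfp991 (-0.44), Zfp954 (-0.40) and Zfp950 (-0.36) were lower too.

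Among those lower calls, Zfp991 was lost without A733T replicate 1 (adjusted p = 0.0647) or 3 (0.244), Zfp974 without replicate 2 (0.131) or 3 (0.276), Zfp994 without replicate 1 (0.0668) or 2 (0.11) and Zfp950 without replicate 1 (0.0671) or 3 (0.197), in edgeR's test. With the GC trend taken out, 13 were higher and 13 lower, where 23.1% and 29.7% of all genes were. Without K634E replicate 3 the counts were 15 and 9. The trophoblast sum was 54.5 to 63.5 CPM with A733T and 18.9 to 32.4 CPM in the other variant lines, and the endoderm sum 109.4 to 111.6 CPM and 50.6 to 74.4 CPM. The part of these markers was not tested.

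ATRA treatment against mESC, over the mean of the 8 lines, gave the widest change. Of 59 members tested, 34 fell and 14 rose, where 39.7% and 41.5% of all genes did. The median log2 fold change of the members was -0.31 and that of all genes 0.00. Of 309 other numbered Zfp genes 149 fell and 120 rose, with a median of -0.09. The summed level of the 9 stem cell markers was 5207 to 7102 CPM in mESC and 1502 to 2872 CPM after ATRA. The endoderm sum was 0.536 to 5.87 CPM in mESC and 50.6 to 131.9 CPM after ATRA. The part of these markers in the result was not tested. All libraries of both states enter this fit, and the GC trend taken out was fitted within each state, so a trend shared by a whole state stays in.

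Cluster medians lay on both sides of 0. In the 10-member chromosome 17 cluster 9 fell, with a median of -0.88, and Zfp948 alone rose. All 3 members of the smaller chromosome 17 cluster fell, as did 3 of 4 on chromosome 7 and 4 of 6 tested on chromosome 2. In the chromosome 4 cluster 8 rose and 5 fell, with a median of 0.17. Of the other genes in that interval 24 of 30 rose and 3 fell, with a median of 0.85.

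Zfp984, although on chromosome 4, fell most, from a mean of 29.4 CPM in mESC to 12.2 CPM (log2 fold change -1.23 ± 0.05, adjusted p = 5.89e-28 in edgeR's test). Its lowest mESC library, at 20.4 CPM, was above its highest ATRA library, at 17.2 CPM. Zfp946 went from 6.22 to 2.87 CPM (-1.09 ± 0.06) and did not overlap between states either. Zfp976 (-1.02), Zfp943 (-0.97), Zfp994 (-0.97) and Zfp944 (-0.94) fell similarly.

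Upward, Zfp992 (0.73), Zfp948 (0.73), Zfp981 (0.72), Zfp978 (0.62), Zfp963 (0.53) and Zfp934 (0.49) changed most, and the ranges of both states overlapped for each of them. Zfp951 did not pass (-0.22, adjusted p = 0.101 in edgeR's test). It passed when 1 of 4 libraries was left out, EZH2-WT replicate 2 or A733T replicate 3 after ATRA or R679C replicate 1 or A733T replicate 2 in mESC, with an adjusted p down to 0.0242. Leaving out any 1 library ended none of the calls named for the other members here.

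**Figure D5:**
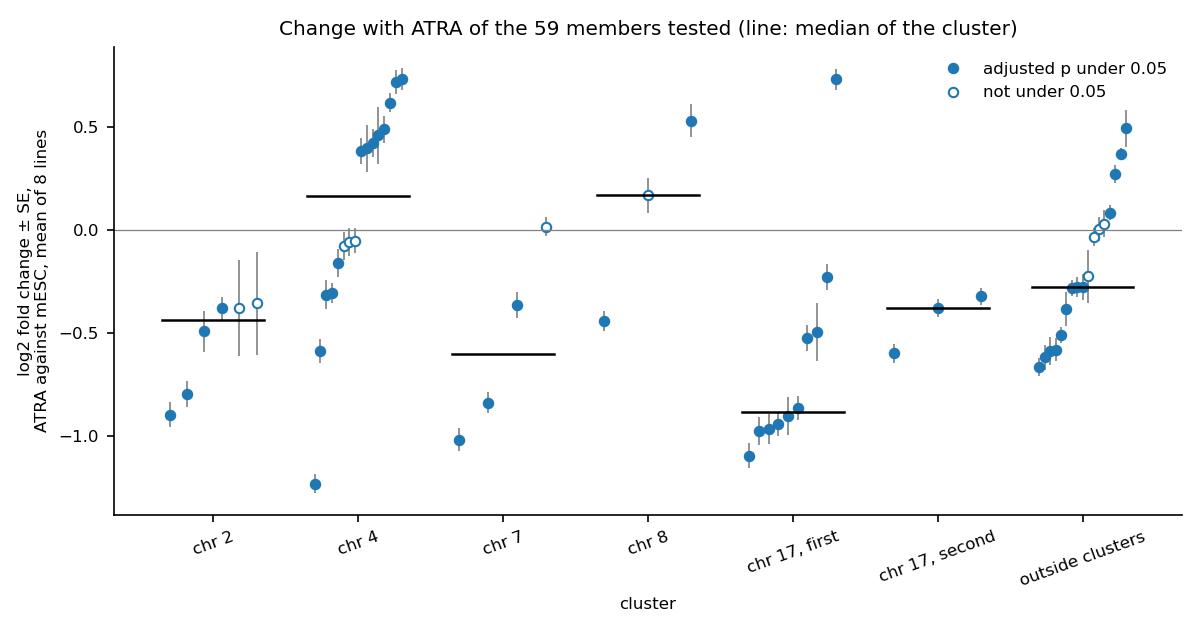
Log2 fold change ± SE of each of the 59 members tested, ATRA against mESC over the mean of 8 lines, by cluster, filled where the adjusted p is under 0.05, with a line at the median of each cluster. The larger chromosome 17 group has 9 of 10 points below 0, and the chromosome 4 group has 8 points on each side of 0.

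Partners of KRAB zinc finger proteins, and some such proteins themselves, were measured with a list of 30 corepression genes. Of these, 29 were found and 28 tested. The list includes Zfp932, a member that is known to repress endogenous retroviruses. In the heterozygote against the parental line 1 of 28 rose and 0 fell in mESC, where 1.17% and 2.26% of all genes did. After ATRA 1 rose and 1 fell, against 2.20% and 4.05%. Trim28 (-0.02) and Setdb1 (-0.03) did not pass in mESC. With EZH2-WT, Trim28 rose by 0.31 over the heterozygote in mESC (adjusted p = 0.000687 in edgeR's test). There 5 of 28 were up and 1 down, against 5.22% and 6.84% of all genes. In A733T against EZH2-WT in mESC 1 rose and 3 fell, where 10.7% and 8.64% of all genes did. Trim28 fell by 0.18 on the log2 scale (adjusted p = 0.0322), which was lost with the GC trend taken out (-0.04, adjusted p = 0.7).

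After ATRA, 3 of 28 rose and 2 fell in the 4 variant lines against EZH2-WT, where 8.43% and 12.1% of all genes did. Setdb1 rose by 0.13 (adjusted p = 0.0152 in edgeR's test). Zfp57, the KRAB zinc finger protein of imprinted regions, changed most, by -0.86 (adjusted p = 2.18e-12). Against A733T 14 rose and 2 fell, where 21.5% and 27.0% of all genes did. Trim28 was at 0.27, Setdb1 at 0.26 and Zfp57 at -1.03 there. ATRA against mESC gave 11 up and 13 down, where 41.5% and 39.7% of all genes rose and fell. Trim28 fell by 0.35, Setdb1 by 0.26 and Zfp57 by 1.94, all on the log2 scale. Zfp932 was at 16.1 to 32.0 CPM in mESC and 13.4 to 25.1 CPM after ATRA, and fell by 0.28 on the log2 scale (adjusted p = 3.92e-06).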

How the data were processed

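Raw gene counts, deposited by the authors as 1 table, were the unit used. Tools named in the submitters' processing notes are featureCounts 1.6.4, STAR 2.7.3a, DESeq2 1.38.3 and cutadapt 3.2, with mm10. How strand and multi-mapping reads were handled, and the annotation: not given in the sources used here. Columns of 48 libraries matched labels, and 6 were left out. Of 55401 genes, 55141 matched GENCODE M21. Genes were filtered on low counts, scaled by TMM and tested with edgeR 4.0.16 (quasi-likelihood, Benjamini-Hochberg over all genes, R 4.3.3), within each state with all 8 lines, or over both states. Named members were at most 6 per direction by size, plus Zfp934 and Zfp951; other members named were chosen after their values were seen. Members and lists were chosen with earlier results of these data known. Simulated data tested the fit for the heterozygote against the parental line in mESC (15830 genes). It recovered 79% of genes changed 1.5-fold and 100% of those changed 2-fold, and called 10 unchanged genes. For the difference between states in that comparison it recovered 61% and 90%. The changed genes were drawn from well-counted ones, and no trend over GC content was simulated for these figures. They therefore say nothing about members with few reads or about the GC dependence. Alternatives were a GC correction, a replicate block, DESeq2 1.42.0, other size factors, no filter and each library left out.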

Additional observations from a re-analysis of the deposited data

Results flagged for a closer look

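The effect of 5 member and line pairs differed between mESC and ATRA by a test of the difference itself (edgeR's interaction term, adjusted over all genes; ATRA minus mESC on the log2 scale), a test added after the data were seen. For the heterozygote against the parental line, Zfp992 differed by 0.864 (adjusted p = 0.0121; -1.40 in mESC and -0.54 after ATRA) and Zfp981 by 0.9909 (adjusted p = 0.0116; -1.90 and -0.91). Both were lower in the heterozygote in both states, by less after ATRA. The call for Zfp992 was lost without the parental replicate 2 in mESC (0.0697) or replicate 1 after ATRA (0.0586), and that for Zfp981 without heterozygote replicate 2 or 3 in mESC (adjusted p of at most 0.0533).

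For A733T against EZH2-WT the same test called 3 members. Its mESC side uses the EZH2-WT libraries behind the choice of the block, so these values are a description. Zfp992 differed by -0.7378 (1.10 in mESC and 0.34 after ATRA), Zfp936 by -0.6758 (0.64 and -0.06) and Zfp961 by -0.4918 (0.81 and 0.30). Each was lost without most of the 12 libraries, and Zfp992 also with the GC trend taken out. No member was called by this test for EZH2-WT against the heterozygote. The share of all genes called by the interaction test is not given here, so nothing about the members as a set is read from these counts.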

How the results depend on the processing

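Counts of members called moved by more than 1.5 times under some settings. With the GC correction they were 13 for EZH2-WT against the heterozygote in mESC (6 otherwise) and 10 after ATRA (6 otherwise), 11 for A733T against EZH2-WT after ATRA (3 otherwise), and 6 at least 1.5-fold for the 4 variant lines against EZH2-WT in mESC (21 otherwise). With the GC correction and the replicate block together these were 14, 12, 12 and 6, and the heterozygote against the parental line in mESC gave 14 (9 otherwise). The replicate block alone gave 8 for A733T after ATRA. The labels do not say whether replicate numbers pair libraries, and the main fits did not use them. Deviations of same-numbered libraries of different groups had a median correlation of 0.089 in mESC and 0.189 after ATRA. For different numbers the medians were -0.054 and -0.090. Same-numbered libraries correlated above 0.1 in 39 of 84 pairs in mESC and 55 of 84 after ATRA. With no filter, A733T after ATRA gave 6 and EZH2-WT against the heterozygote after ATRA gave 10. Shares of all genes are not given here for the replicate block, alone or with the GC correction, or for no filter. A change in those counts is therefore not read as particular to the members. With each library left out in turn the ranges were 2 to 5 for EZH2-WT against the heterozygote in mESC, 7 to 13 for A733T in mESC, 0 to 3 for A733T after ATRA and 4 to 10 for the heterozygote against the parental line after ATRA.

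Fold changes near 0 changed sign. Zfp934, EZH2-WT against the heterozygote, went from -0.05 to 0.0028 in mESC and from 0.07 to -0.00035 after ATRA with the GC correction. With 1 library left out it ran from -0.19 to 0.14 in mESC and from -0.043 to 0.16 after ATRA. Zfp951, A733T against EZH2-WT after ATRA (0.16), ran from -0.41 to 0.61 with 1 library left out. Of 81 fold changes of named members, DESeq2 left 80 on the same side of the threshold, other size factors 81, the replicate block 80 and no filter 77 (4 lost). The GC correction left 73, with 5 without a test moved by more than their spread and 2 reversed. Over all single libraries left out, 1191 values stayed, 63 lost their call and 5 reversed. The cause of these shifts was not tested. Depth limits the members with few reads, such as Zfp951, Zfp986 and Zfp993.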
